A study of Mus musculus with 16 samples.

Results

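Caseins are the main proteins of milk. The mouse has 5 casein genes, and all 5 are described here: Csn1s1 (alpha-S1 casein), Csn2 (beta casein), Csn1s2a and Csn1s2b (alpha-S2-like caseins) and Csn3 (kappa casein). They were taken by name, through every probe set that the array's probe-to-gene table assigned to a casein gene alone, which gave 10 of 22690 probe sets and 5 of 12394 genes. The array held 1 such probe set for Csn1s1, 2 for Csn2, 4 for Csn1s2a, 1 for Csn1s2b and 2 for Csn3.

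RNA was measured on 16 Affymetrix Mouse Genome 430A 2.0 arrays, all from mice of the FVB/N background. The groups were normal mammary gland (3 arrays, numbered 1, 4 and 6 in the labels), mammary tumours of mice with the constitutively active variant STAT5ca (7 arrays), and mammary tumours of mice with the C-terminally truncated variant STAT5Δ750 (6 arrays). The labels do not give the promoter of either transgene, the age of the mice, the histology of the tumours, or the stage of the glands (virgin, pregnant, lactating or involuting). They also do not say whether each array came from a separate mouse, so p-values measure the spread between these samples, part of which may be technical.

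Milk caseins are secreted as micelles. The alpha and beta caseins bind calcium phosphate through clusters of phosphorylated serines, and kappa casein sits at the surface and keeps the micelle in solution. In mammary epithelium, prolactin acts through its receptor and the kinase JAK2 to phosphorylate STAT5, which enters the nucleus and binds casein promoters together with the glucocorticoid receptor and C/EBP factors. Csn2 is a standard readout of STAT5 activity for this reason. The C-terminus of STAT5 carries the transactivation domain, which a truncated variant lacks in part or in whole.

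In the annotation of mouse build GRCm38.p6 the genes lie together on chromosome 5 in the order Csn1s1, Csn2, Csn1s2a, Csn1s2b, Csn3. RefSeq promoter sequences, from 250 bases before to 50 bases after the gene start, were given for 3 of the 5 genes in that build. They are shown because the transgenes are variants of the factor that binds casein promoters. Csn1s1 is at chr5:87665958-87666257 on the plus strand, Csn1s2a at chr5:87774200-87774499 on the plus strand and Csn2 at chr5:87699376-87699675 on the minus strand, and capitals mark matches to the STAT5 motif TTCNNNGAA.
Csn1s1: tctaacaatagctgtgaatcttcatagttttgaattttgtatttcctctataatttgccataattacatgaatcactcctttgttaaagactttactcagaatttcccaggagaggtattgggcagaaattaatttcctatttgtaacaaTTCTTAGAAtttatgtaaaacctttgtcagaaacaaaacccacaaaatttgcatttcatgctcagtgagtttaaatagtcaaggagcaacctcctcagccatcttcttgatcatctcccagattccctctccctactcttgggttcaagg
Csn2: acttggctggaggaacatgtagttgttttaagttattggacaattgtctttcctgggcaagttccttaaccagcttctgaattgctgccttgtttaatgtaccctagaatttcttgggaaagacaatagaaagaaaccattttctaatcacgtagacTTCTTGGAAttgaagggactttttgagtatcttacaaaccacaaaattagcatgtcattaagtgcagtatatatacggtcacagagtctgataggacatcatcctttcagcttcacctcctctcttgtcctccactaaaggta
Csn1s2a: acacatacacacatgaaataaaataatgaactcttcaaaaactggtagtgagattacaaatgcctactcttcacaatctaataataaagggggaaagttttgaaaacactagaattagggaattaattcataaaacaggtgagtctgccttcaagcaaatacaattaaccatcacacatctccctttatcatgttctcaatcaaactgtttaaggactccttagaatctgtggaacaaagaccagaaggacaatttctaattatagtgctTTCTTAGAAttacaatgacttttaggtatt

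Each of the 3 promoters held 1 match. In Csn1s1 it was TTCTTAGAA from position -100 to -92 relative to the gene start, and in Csn2 it was TTCTTGGAA from -93 to -85. In Csn1s2a it lay after the start, TTCTTAGAA from 21 to 29. Over all 32851 promoters of the table, 8.3% held at least 1 match to this motif. The C/EBP motif TTGCNNAA (10.8% of promoters) and the TATA box letters TATAAA (13.6%) had no match in the 3 windows. The glucocorticoid receptor half-site AGAACA (19% of promoters) matched once, in Csn1s2a from -59 to -54. Both strands were searched, and none of these matches overlapped another. A match describes the letters only, and binding was not measured.

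The labelled tissues were checked with marker lists. Array medians ran from 57.3 to 90.7. The glands carried muscle, fat and lymphocyte RNA: the summed signal of 10 skeletal muscle genes was 54207.3 to 64792.0 on glands, 122.6 to 6850.0 on STAT5ca and 350.6 to 16915.7 on STAT5Δ750 tumours, and all 8 lymphocyte genes tested were called lower in each tumour group, where 9.39% (STAT5ca) and 10.4% (STAT5Δ750) of all genes were. The sum of 14 luminal epithelium markers was 5216.5 to 12756.8 on glands and 20479.0 to 36361.3 on every tumour except STAT5ca_177, where it was 912.2. On STAT5ca_177 the luminal keratin Krt8 was at 25.3, against 3836.1 to 5375.9 on the other STAT5ca tumours, and 10 macrophage genes summed to 38844.4, against 4960.7 to 12576.8 on the other tumours. In these bulk samples, fewer secretory cells and less casein RNA per cell cannot be told apart. The part of cell composition in the casein signals was not tested. A measure of RNA degradation, the beta-actin signal near the transcript's 3' end over that near its 5' end, was 1.07 to 1.25 on glands, 1.76 to 5.38 on STAT5ca and 1.27 to 3.52 on STAT5Δ750 tumours.

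Signals of Csn1s1, Csn2, Csn1s2a and Csn3 were high on the glands. Those of Csn1s1, Csn2 and Csn3 stayed high on most tumours of both kinds. The probe sets used were read near the top of the array's range, so high signals do not show equal amounts of RNA. For Csn1s2a, gland 6 exceeded gland 4 by 1.76-fold with the probe set used for tests and by 31.9-fold with a dimmer one. No casein gene was called between the groups by limma, and low values belonged to particular tumours and particular genes. Signals under 50% of the lowest gland, a limit chosen after the values were seen, were found for Csn3 on 1 of 13 tumours, for Csn1s1 and Csn2 on 2 each, and for Csn1s2a on 6. Csn1s2b was measurable on 1 gland and 5 tumours. Signals below are the deposited MAS5 values, and a signal under 35.4, the 40th percentile of all values, carries little information.

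**Figure D1:**
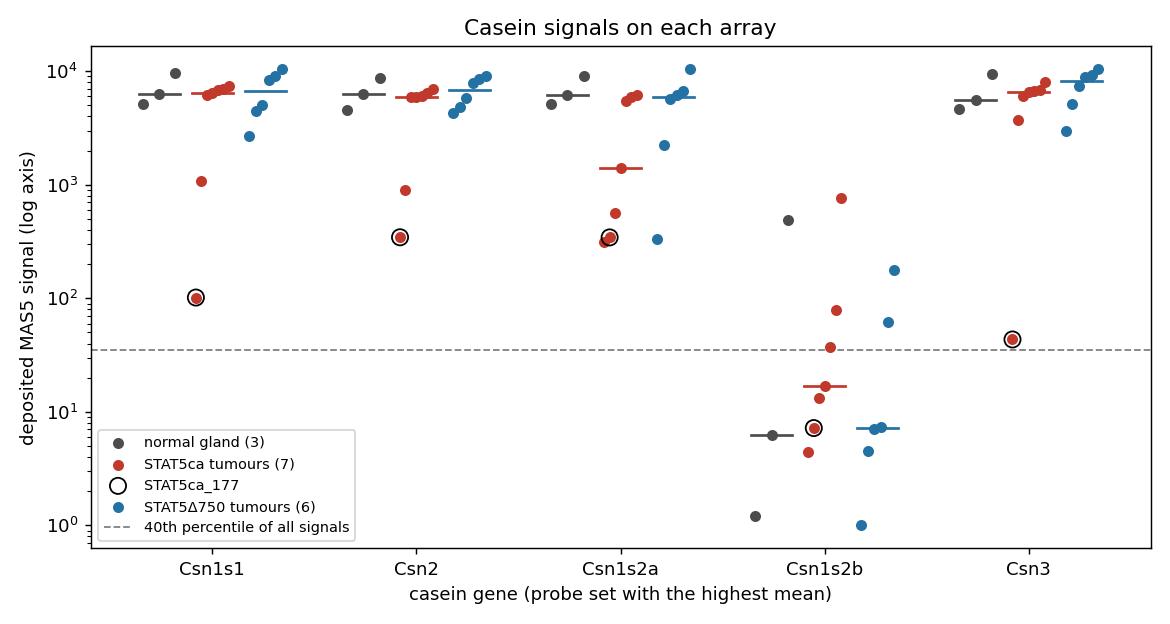
Deposited MAS5 signal (log axis) of the 5 casein genes on each of the 16 arrays, 1 point an array, with the group median as a line. STAT5ca_177 (ringed) is at 43.4 for Csn3 and 101.6 for Csn1s1, the lowest point of both genes, while Csn1s2a is split among the tumours of both kinds.

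Csn1s1, a calcium-sensitive casein, had signals of 6254.4, 5182.2 and 9673.4 on glands 1, 4 and 6. In STAT5ca tumours the lowest signal was 101.6, the median 6411.6 and the highest 7450.2. The lowest array was STAT5ca_177, followed by STAT5ca_169 at 1069.9, and the other 5 lay at 6237.0 or above, within the range of the glands. With arrays scaled to a common median, as for the tests, 2 STAT5ca tumours lay above the highest gland and 2 below the lowest. In STAT5Δ750 tumours Csn1s1 ran from 2702.6 through a median of 6727.65 to 10449.6, with STAT5Δ750_160 lowest and STAT5Δ750_178 highest. All 3 groups overlapped.

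Csn2, the beta casein, was at 6317.5, 4583.3 and 8746.9 on the 3 glands by its brighter probe set. STAT5ca tumours ran from 344.8 through 5892.3 to 6929.9, and STAT5Δ750 tumours from 4278.8 through 6853.65 to 9010.9. As for Csn1s1, the 2 low arrays were STAT5ca_177 and STAT5ca_169, the latter at 896.4, and the other 5 STAT5ca tumours were at 5871.6 or above. The second Csn2 probe set gave 5109.8, 2510.0 and 7564.2 on the glands, 175.5 to 5610.1 in STAT5ca and 3370.2 to 7693.9 in STAT5Δ750 tumours, with the same 2 low arrays. The groups overlapped with either probe set.

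Csn1s2a, an alpha-S2-like casein, was at 6135.2, 5107.4 and 8996.1 on the glands by the probe set with its highest mean log2 signal, which the tests used. Its signals in STAT5ca tumours had a lowest value of 310.6, a median of 1415.3 and a highest value of 6228.6. In STAT5Δ750 tumours they had a lowest value of 336.1, a median of 5921.95 and a highest value of 10498.5. The tumours were split within both groups. Signals were low on STAT5ca_159 (1415.3), STAT5ca_169 (566.2), STAT5ca_171 (310.6), STAT5ca_177 (343.9), STAT5Δ750_160 (2232.3) and STAT5Δ750_165 (336.1), and above 5000 on the other 7 tumours and on all 3 glands. On STAT5ca_171 and STAT5ca_159 low Csn1s2a stood beside Csn1s1 at 7039.7 and 6237.0 and Csn2 at 5892.3 and 6384.0, both inside the gland range.

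Csn1s2b, the other alpha-S2-like casein, was near or below the lower range of the array on most samples. The 3 glands gave 6.3, 1.2 and 487.1. STAT5ca tumours ran from 4.4 through 16.9 to 768.8, and STAT5Δ750 tumours from 1.0 through 7.15 to 175.8. Signals above 35.4 were found on gland 6, on STAT5ca_124 (768.8), STAT5ca_213 (78.6) and STAT5ca_123 (37.3), and on STAT5Δ750_178 (175.8) and STAT5Δ750_174 (62.2). All 6 belonged to the 10 arrays with Csn1s2a above 5000, and none to the other 6, a limit chosen after the values were seen.

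Csn3, the micelle-stabilising kappa casein, was at 5543.0, 4603.8 and 9368.6 on the glands. In STAT5ca tumours it was at 43.4 on STAT5ca_177, then at 3741.8 or above on the other 6, with a median of 6621.2 and a highest value of 8030.2. That highest STAT5ca value was on STAT5ca_169, the tumour with low Csn1s1, Csn2 and Csn1s2a. On deposited signals 0 of 7 STAT5ca tumours were above the highest gland and 2 below the lowest. With arrays scaled to a common median, 4 were above and 2 below. In STAT5Δ750 tumours the lowest signal was 2999.1, the median 8164.4 and the highest 10512.9. The groups overlapped. A second Csn3 probe set was dim, at 11.2 to 141.0 on glands, 0.5 to 79.9 in STAT5ca and 7.7 to 81.4 in STAT5Δ750 tumours.

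The glands differed from one another in the same order for every casein. Gland 6 was the highest and gland 4 the lowest of the 3 for all 10 casein probe sets. The array medians (90.7, 82 and 77.2 on glands 6, 1 and 4) and the luminal sums (12756.8, 9416.2 and 5216.5) had the same order. The share of all probe sets in this order was not counted, so the order is no result about caseins. Gland 6 was also the gland with the most Wap, the whey acidic protein of late pregnancy and lactation, at 7606.4 against 277.1 and 31.1 on glands 1 and 4. As a share of the highest signal on its own array, the brightest probe set on the glands reached 57.8% to 100% for Csn1s1, 51.1% to 90.4% for Csn2, 56.9% to 93.0% for Csn1s2a and 51.3% to 96.8% for Csn3. These probe sets were therefore read near the top of the array's range, and probe brightness depends on probe sequence, so the shares do not rank the genes by amount.

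The 4 probe sets of Csn1s2a gave different sizes for the same contrasts. Gland 6 was above gland 4 by 1.76-fold with the probe set used for tests and 2.07-fold with the second, but 31.9-fold with the third, a dimmer one, at 4231.6 against 132.5. Over the 10 arrays above 5000 the highest and lowest signals differed 2.06-fold with the first of these, 2.23-fold with the second and 50.8-fold with the third. On those 10 arrays the third was above 35.4 each time, between 132.5 and 6731.0, and on the other 6 arrays it was between 0.4 and 24.3. The same arrays were thus high and low with these 3 probe sets, and the size of a difference depended on which was read. The dimmest probe set exceeded 35.4 on 5 of the 10 arrays, with 296.0 on gland 6 and 1585.3 on STAT5Δ750_178, and on 0 of the other 6.

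**Figure D2:**
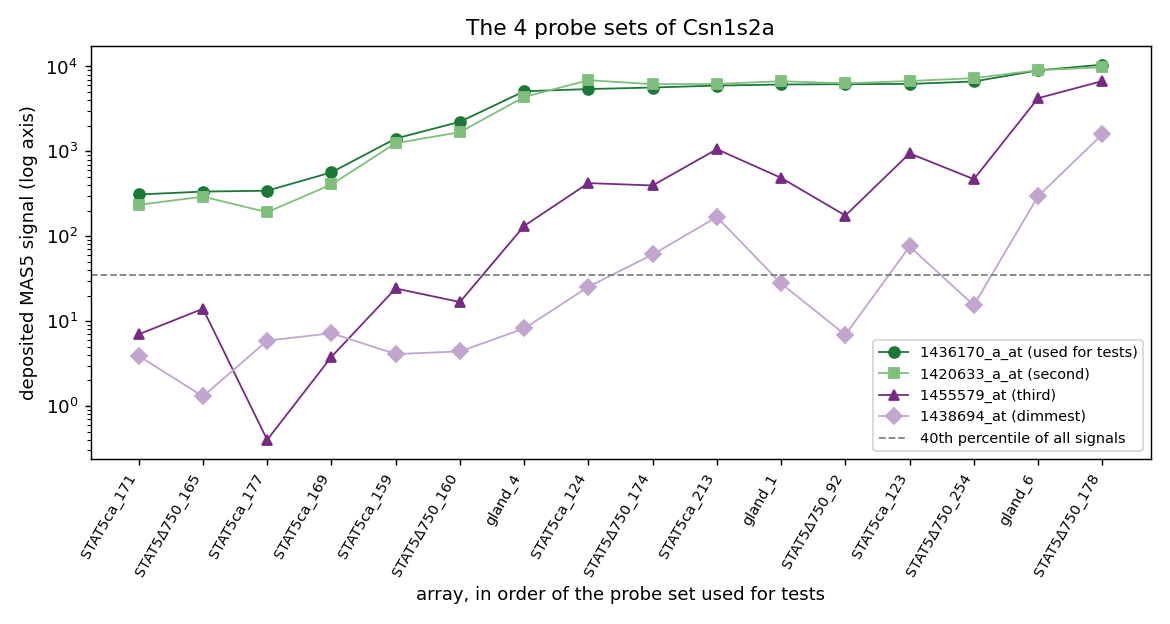
Deposited MAS5 signal (log axis) of the 4 Csn1s2a probe sets on the 16 arrays, ordered by the one used for tests. The upper pair of lines spans 4376.1 to 10498.5 over the 10 arrays on the right, where the third probe set spans 132.5 to 6731.0.

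For the tests, arrays were scaled to a common median and 7.9, the 20th percentile of all signals, was added before log2. All 10 casein probe sets passed the filter on low values, and each gene was tested with its brightest probe set among 9261 genes. Except for Csn1s2b, these were the probe sets read near the top of the array's range. A difference can therefore be larger than they show, as the dimmer Csn1s2a probe set did for the glands. The first comparison, STAT5ca tumours against glands, asked whether tumours with active STAT5 carry another casein level than normal tissue. By limma 0 of 5 casein genes were called, against 23.3% of all genes (13.9% higher and 9.39% lower in the tumours). The log2 differences were -0.94 ± 1.0 (SE) for Csn1s1, -0.72 ± 0.75 for Csn2, -1.82 ± 1.12 for Csn1s2a, 0.36 ± 1.35 for Csn1s2b and -0.71 ± 1.13 for Csn3, each from 7 tumours and 3 glands. Adjusted p by limma was 0.254 for Csn1s2a and 0.512 to 0.871 for the others. The median of the 5 differences was -0.72, against 0.25 over all genes tested. On the deposited scaling the casein median was -1.01 and that of all genes -0.02, and 1848 genes were called, 622 higher and 1226 lower, in place of 1284 higher and 870 lower. Quantile normalization gave 871 higher and 1137 lower, with a casein median of -0.91. The 95% intervals were wide, for example -3.07 to 1.18 for Csn1s1 and -4.19 to 0.55 for Csn1s2a, so that a fall or a rise of more than 1 log2 unit is inside the first.

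These estimates depended on STAT5ca_177. Without it the differences from gland were -0.19 ± 0.57 for Csn1s1, -0.23 ± 0.54 for Csn2, -1.51 ± 1.11 for Csn1s2a, 0.60 ± 1.39 for Csn1s2b and 0.24 ± 0.39 for Csn3, and 0 of 5 passed by limma. Csn3 thereby changed direction. Over the fits with 1 array left out, 1179 to 3039 of the 9261 genes were called in this comparison. With the beta-actin ratio as a covariate Csn1s2a was called, at -4.69 ± 1.12 with an adjusted limma p of 0.0189. The ratios of glands (1.07 to 1.25) did not overlap those of STAT5ca (1.76 to 5.38) or STAT5Δ750 tumours (1.27 to 3.52). A fit with the ratio therefore cannot separate it from the group in either comparison with glands. Over all settings tried for Csn1s2a in this comparison, adjusted p ran from 0.0189 to 0.739, and this was its only call. The 3 STAT5ca tumours with Csn1s2a above 5000 had actin ratios of 3.72, 5.38 and 5.23, and the 4 with low Csn1s2a had ratios of 1.76 to 2.53. The glands, all with high Csn1s2a, had the lowest ratios. Among STAT5Δ750 tumours the ratio was 1.27 and 1.98 on STAT5Δ750_165 and STAT5Δ750_160, where Csn1s2a was low. It was 1.33 on STAT5Δ750_178, the highest for Csn1s2a, and 2.11, 3.52 and 2.72 on STAT5Δ750_254, STAT5Δ750_92 and STAT5Δ750_174.

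STAT5Δ750 tumours were compared with the glands in the same model, for the same question about the truncated variant. Again 0 of 5 casein genes were called, against 19.7% of all genes (9.29% higher and 10.4% lower). Differences in log2 were -0.04 ± 1.03 (SE) for Csn1s1, 0.16 ± 0.77 for Csn2, -0.77 ± 1.15 for Csn1s2a, -0.51 ± 1.39 for Csn1s2b and 0.26 ± 1.16 for Csn3, from 6 tumours and 3 glands. Their adjusted limma p ran from 0.674 to 0.984. The median was -0.04, against 0.08 over all genes. On the deposited scaling 706 genes were higher and 1299 lower, in place of 860 and 963, and the casein median was -0.17. By quantile normalization the calls were 895 and 1276, with a casein median of -0.25. The interval for Csn2, the narrowest of the 5, reached from -1.46 to 1.79, so a fall or a rise of more than 1 log2 unit is inside it. This comparison shares its 3 glands with the first.

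The direct comparison of both tumour groups asked whether the form of the STAT5 transgene goes with the casein level. None of the casein genes was called by limma, and 0% of all genes were called, with 764 of 9261 at an unadjusted p under 0.05. STAT5ca minus STAT5Δ750 was -0.91 ± 0.81 for Csn1s1, -0.88 ± 0.60 for Csn2, -1.05 ± 0.90 for Csn1s2a, 0.87 ± 1.09 for Csn1s2b and -0.97 ± 0.91 for Csn3, with adjusted limma p from 0.717 to 0.849. Without STAT5ca_177 these values were -0.16, -0.40, -0.74, 1.11 and -0.02. The interval for Csn2 was -2.16 to 0.40 and that for Csn3 was -2.91 to 0.96, which leaves room for a lower or a higher level in STAT5ca tumours. Over the 15 casein differences the lowest unadjusted limma p was 0.123. The groups overlapped in each of the 15, but the share of all genes whose groups overlap was not counted, so this overlap is no result about caseins.

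**Figure D3:**
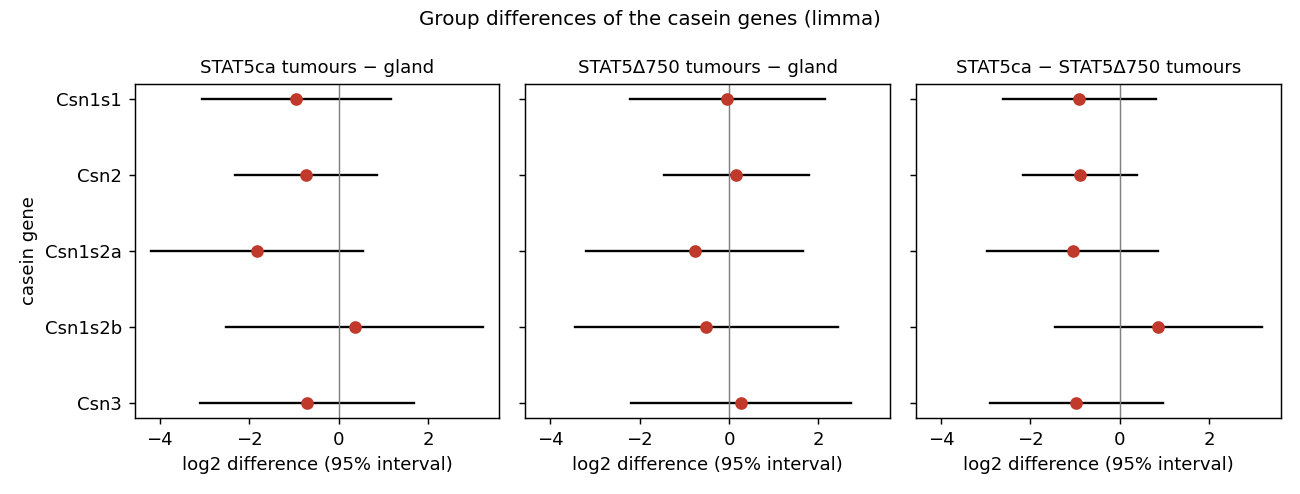
Log2 difference (point) and 95% interval (line) of each casein gene in the 3 comparisons, from limma. Each interval crosses 0, and that of Csn1s2a in STAT5ca tumours against glands runs from -4.19 to 0.55.

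Group means of each casein could not be ranked beyond their spread. Csn3, for example, had a mean log2 signal of 12.47 ± 0.41 (SD) over the 3 glands, 11.76 ± 2.57 (SD) over the 7 STAT5ca tumours and 12.73 ± 0.68 (SD) over the 6 STAT5Δ750 tumours. In the same order, Csn1s2a was at 12.55 ± 0.30, 10.73 ± 2.04 and 11.78 ± 1.80. The order from glands to STAT5Δ750 to STAT5ca tumours held for the Csn1s2a means, and neighbours in it differed by less than the SD of the tumours.

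The spread itself was large. In STAT5ca tumours the SD of log2 signal was 2.24 for Csn1s1, 1.68 for Csn2, 2.04 for Csn1s2a, 2.15 for Csn1s2b and 2.57 for Csn3, at percentiles 98.3, 94.3, 97.5, 97.9 and 99.3 of the 9261 genes, whose median SD was 0.58. Without STAT5ca_177 the SD fell to 1.13, 1.19 and 0.52 for Csn1s1, Csn2 and Csn3 and was 2.04 and 2.25 for Csn1s2a and Csn1s2b. With the probe sets used for tests, the large spread of Csn3 among STAT5ca tumours thus rested on 1 array, and that of Csn1s2a did not. The dim second Csn3 probe set had an SD of 1.17 over the 7 STAT5ca tumours, and its SD without STAT5ca_177 was not computed. In STAT5Δ750 tumours Csn1s2a (SD 1.80, percentile 97.6) and Csn1s2b (1.72, percentile 97.2) spread widely as well, while Csn1s1 (0.73), Csn2 (0.43) and Csn3 (0.68) lay at percentiles 78.3, 50.9 and 75.4. In the glands the most variable casein was Csn1s2b, with an SD of 3.03. That SD rested on gland signals of 6.3, 1.2 and 487.1, of which the lower ones carry little information. The gland SD of Csn1s2a depended on the probe set. It was 0.30 with the one used for tests, and 2.37 and 2.07 with the dimmer ones.

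Csn1s1 and Csn2 varied together from tumour to tumour. Over the 13 tumours their log2 signals had a Pearson r of 0.97 and a Spearman rho of 0.98, each with a permutation p of 2e-05, the smallest that the resampling can give, and 0.0006 after adjustment over the 30 tests. Without STAT5ca_177 and STAT5ca_169, the arrays farthest from the median, r was 0.95. The rho within STAT5ca tumours was 0.96 (n = 7, exact permutation p = 0.00278, adjusted 0.0139), and within STAT5Δ750 tumours it was 1 (n = 6, exact permutation p = 0.00278, adjusted 0.0139). These values are for arrays scaled to a common median. On the deposited scaling 0 of 10 casein pairs passed by rho within STAT5ca tumours, and 1 of 10 within STAT5Δ750 tumours. All caseins share array scaling, tissue composition and cRNA labelling, so these relations carry no more than that signals go up and down on the same arrays.

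The other pairs were looser. Csn1s2a had a rho of 0.75 with Csn1s1, 0.81 with Csn2 and 0.77 with Csn3 over the 13 tumours (adjusted permutation p 0.0194, 0.0139 and 0.0139), but an r of 0.59, 0.64 and 0.54 with adjusted permutation p of 0.0899 each. Without the 2 arrays farthest from the median of Csn1s1 or Csn1s2a, these r were 0.52, 0.91 and 0.68. Csn3 had a rho of 0.71 with Csn1s1 and 0.73 with Csn2 over all 13 tumours (r 0.86 and 0.76, and 0.69 and 0.80 without STAT5ca_177 and STAT5ca_169). These rho were 0.50 and 0.46 within the 7 STAT5ca tumours, where STAT5ca_169 combined high Csn3 with low Csn1s1 and Csn2. Csn1s2b had a rho of 0.64 with Csn1s2a (adjusted permutation p 0.0477) and of 0.30 to 0.38 with the others, which did not pass. In all, 7 of 10 pairs passed by rho, 4 of them without STAT5ca_177 and 1, Csn1s1 with Csn2, on the deposited scaling. By Pearson r only the pair of Csn1s1 and Csn2 passed over the 13 tumours.

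**Figure D4:**
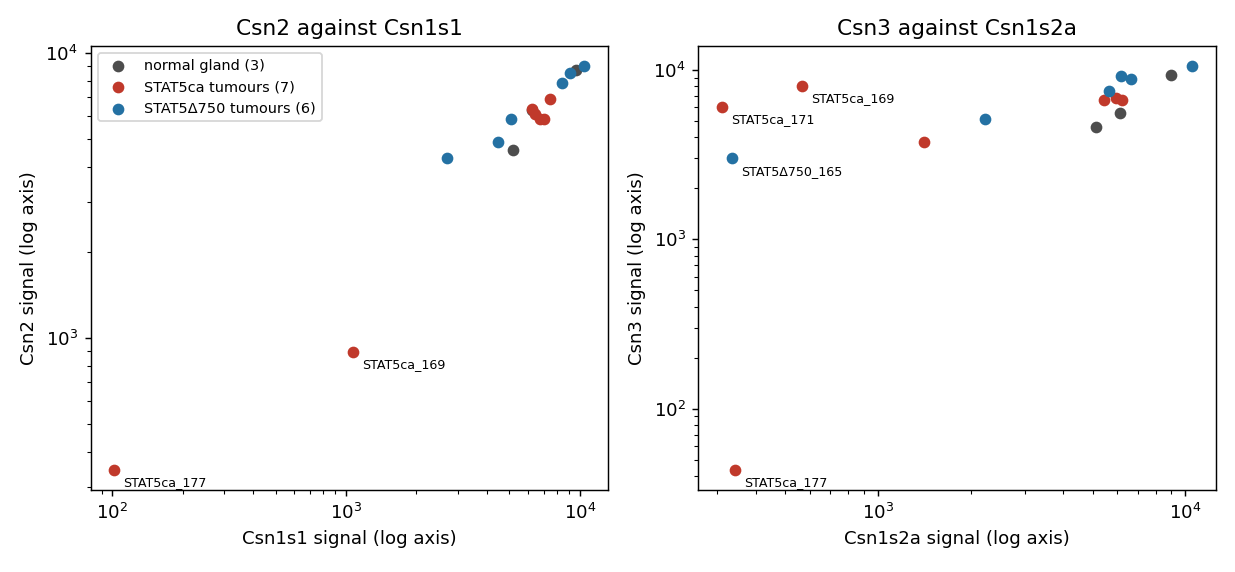
Deposited MAS5 signals (log axes) of Csn2 against Csn1s1 (left) and of Csn3 against Csn1s2a (right), 1 point an array, coloured by group. On the left the arrays follow a single line from STAT5ca_177 upward, while on the right STAT5ca_169 and STAT5ca_171 have Csn1s2a at 566.2 and 310.6 beside Csn3 at 8030.2 and 6031.1.

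Other milk genes were counted in the same comparisons. Of 18 whey and secretory genes tested, 1 was called higher and 0 lower in either tumour group against glands, and 0 between the tumour groups. Of all genes, 13.9% were higher and 9.39% lower in STAT5ca, and 9.29% higher and 10.4% lower in STAT5Δ750 tumours. The gene called was Aldoc, a glycolytic aldolase, at 2.06 ± 0.38 in STAT5ca (adjusted limma p 0.00129) and 1.92 ± 0.39 in STAT5Δ750 tumours (adjusted limma p 0.00300). With the actin ratio as a covariate Aldoc was not called in STAT5ca tumours, at 0.0517. The median log2 differences of the list were -0.17 and 0.12. Wap differed from glands by -0.30 ± 2.01 and 0.24 ± 2.06, and Lalba, the alpha-lactalbumin of lactose synthesis, by -1.91 ± 1.51 and -1.72 ± 1.55, and neither was called. Wap was at 9115.6 on STAT5Δ750_178, the array with the highest Csn1s1, Csn2, Csn1s2a and Csn3, and at 1013.1 to 3282.0 on the 3 STAT5ca tumours with high Csn1s2a, against 22.4 to 118.0 on the other 4. On STAT5ca_177 the 18 genes summed to 6635.2, the lowest of all arrays.

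Transcription factors, receptors and signalling genes that control casein expression, with feedback inhibitors, were read next, in 24 tested of a list of 28. In STAT5ca tumours 3 were called higher, a share close to the 13.9% of all genes, and 0 lower, against 9.39%. The 3 were Cebpb, a C/EBP factor, at 0.95 ± 0.32 (adjusted limma p 0.0400), Id2, a helix-loop-helix inhibitor, at 1.20 ± 0.40 (0.0398), and Ctnnb1, beta-catenin, at 0.78 ± 0.23 (0.0208). Each of the 3 lost its call on the deposited scaling, under quantile normalization, with the actin ratio and when gland 1, 4 or 6 was left out. Their highest adjusted p in any setting was 0.357, 0.603 and 0.269. In STAT5Δ750 tumours 0 were higher, against 9.29% of all genes, and 4 were lower, against 10.4%. These were Stat5b, one of the STAT5 genes, at -1.28 ± 0.35 (adjusted limma p 0.0184), Jak2, the kinase of the prolactin receptor, at -0.93 ± 0.31 (0.0422), Nr3c1, the glucocorticoid receptor, at -0.88 ± 0.30 (0.0493), and Cebpa, a C/EBP factor, at -1.80 ± 0.55 (0.0300). Of 26 alternatives, Stat5b lost its call in 2 (without gland 1 or gland 4), Cebpa in 6, Jak2 in 8 and Nr3c1 in 18, with adjusted p up to 0.0962, 0.102, 0.168 and 0.174. The list's medians were 0.08 in STAT5ca and 0.25 in STAT5Δ750 tumours, and 0 of its genes were called between the tumour groups.

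Stat5a, the main STAT5 gene of mammary epithelium, was at 392.3 to 682.8 on glands, 102.6 to 609.6 in STAT5ca and 98.6 to 587.0 in STAT5Δ750 tumours, with differences of -0.72 ± 0.54 and -1.22 ± 0.55 that were not called. Whether its probe set reads the transgene was not tested. Elf5, an epithelial factor that promotes milk gene expression, differed by 0.10 ± 1.34 and 0.78 ± 1.37. Cish and Socs2, feedback inhibitors that STAT5 induces, differed by -0.36 ± 0.51 and 0.05 ± 1.03 in STAT5ca and by -0.26 ± 0.52 and 0.99 ± 1.06 in STAT5Δ750 tumours. None of these was called. Nor were the keratins Krt8 (1.16 ± 1.15 and 1.94 ± 1.17) and Krt14 (1.38 ± 1.36 and 1.87 ± 1.40), of luminal and basal cells. Elf5 was at 7.8 on STAT5ca_177 and 607.2 on STAT5ca_169, the lowest of the STAT5ca tumours, against 2568.7 to 4380.6 on the other 5.

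The last list held genes for phosphorylation, calcium supply and secretion of casein. Of 16 tested, 4 were higher and 1 was lower in STAT5ca tumours, and 3 were higher and 1 was lower in STAT5Δ750 tumours. These 5 and 4 calls are not far from the shares over all genes, 23.3% and 19.7% in either direction. Casr, the calcium-sensing receptor, fell by 1.46 ± 0.23 (adjusted limma p 0.000419) and 1.45 ± 0.24 (0.000631) on the log2 scale. Pdia4, a disulfide isomerase of the endoplasmic reticulum, was higher by 1.15 ± 0.20 (0.000879) and 1.16 ± 0.20 (0.00115), and Slc2a1, the glucose transporter, by 1.52 ± 0.39 (0.0112) and 1.81 ± 0.40 (0.00524). Vamp8, a vesicle fusion protein, was called in STAT5ca tumours (1.29 ± 0.32, adjusted limma p 0.00857), as was Rab3d, a GTPase of secretory vesicles (1.75 ± 0.56, 0.0333). Rab3d ranked below the other 4 genes called and was named after its value was seen. It lost its call in 7 of 26 alternatives: on the deposited scaling, under quantile normalization, with the actin ratio, and without gland 1, gland 4, gland 6 or STAT5ca_123 (adjusted p up to 0.182). Stx3, a syntaxin, was called in STAT5Δ750 tumours (1.41 ± 0.44, 0.0337). Between the tumour groups 0 genes of the list were called. Vamp8 and Slc2a1 were not called in STAT5ca tumours with the actin ratio in the model, at adjusted p 0.0964 and 0.159, and Stx3 lost its call without gland 1, gland 4, STAT5Δ750_92 or STAT5Δ750_178. The list's medians were 0.59 and 0.17.

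The genes whose tumour-to-tumour pattern was most like the caseins were found by Spearman rho with the mean of the 5 centred casein log2 signals over the 13 tumours. The 10 highest were Pcnx3 (0.93), Pank1 (0.92), Frat2, Lgals12, Cdc25a, Olah and Parp16 (0.91 each) and Reep6, Nfat5 and Slc28a3 (0.90 each), and the median absolute rho of all genes was 0.29. The lowest were Slc25a24 (-0.94), Ube2w (-0.89) and Il18bp (-0.88). Without STAT5ca_177 the 10 rho values were 0.87 to 0.91. They describe likeness over few samples and are the extremes of 9261 genes. Olah, the thioesterase that ends the medium chains of milk fatty acids, ran from 3.2 to 835.6 in STAT5ca and 5.8 to 3064.1 in STAT5Δ750 tumours. Slc28a3, a nucleoside transporter, ran from 3.2 to 1882.0 and from 20.7 to 1431.6. Each casein is part of this mean, which raises its own rho. That rho was 0.86 for Csn1s2a and Csn2, 0.81 for Csn1s1, 0.71 for Csn1s2b and 0.58 for Csn3. By Pearson r the lowest was Csn1s2b at 0.64, and Csn3 was at 0.84.

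Genes beside the caseins on chromosome 5 were read for the same pattern. Of 27 annotated genes between them or within 10 genes on either side, 7 were on the array and 4 were tested. Smr2, which encodes a salivary-type secreted protein, fell by 3.69 ± 0.38 in STAT5ca tumours (adjusted limma p 1.4e-05) and by 3.38 ± 0.39 in STAT5Δ750 tumours (4.35e-05) on the log2 scale, and its rho with the casein mean was -0.04. Sult1d1, a sulfotransferase, Smr3a and Prol1 were not called in either tumour group, and their rho was 0.38, -0.02 and -0.58.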

How the data were processed

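Total RNA was hybridised as biotin-labelled cRNA. The deposited values are the authors' MAS5 signals, in linear intensity, 1 per probe set and array, per the submitters' processing notes, which give no version. The trimmed mean was 250.1 on each array, array medians differed 1.58-fold, and arrays were scaled to a median of 75.9. Tests used log2 of signal plus 7.9. Probe sets above 35.4 on at least 3 arrays were kept (15764), with 1 symbol and the highest mean per gene (9261 genes). The 3 groups were fitted in 1 model with limma 3.58.1 in R 4.3.3, with two-sided p adjusted by Benjamini-Hochberg within each comparison and a threshold of 0.05. Errors of differences are the model's. The number of arrays limits the precision. Correlations used permutation tests (100000 resamples, or exact under 10 samples), adjusted over 30 tests. The fit was tested on simulated data. Figures used matplotlib 3.10.9.

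The members and gene lists were chosen with earlier results of these data known. Named were all casein probe sets, passing genes of 3 lists (up to 4 per comparison by adjusted p, and Rab3d outside this rule) with Wap, Lalba, Stat5a, Stat5b, Prlr (not analysed here), Jak2, Elf5, Cish, Socs2, Krt8 and Krt14, the 10 genes most and 3 least like the caseins, and tested neighbours. Other lists were counted: against glands, 1 luminal gene of 14 was higher in STAT5ca and 4 in STAT5Δ750 tumours, 4 and 2 of 10 basal genes were lower, as were 6 and 7 of 8 adipocyte and 10 and 9 of 10 muscle genes, 9 of 9 mitosis genes were higher in both, and of 10 macrophage genes 2 were higher and 1 lower in STAT5ca and 1 lower in STAT5Δ750 tumours. Of all genes, 13.9% were higher and 9.39% lower in STAT5ca, and 9.29% and 10.4% in STAT5Δ750 tumours. Alternatives were the deposited scaling, quantile normalization, an offset of 1, no filter, a filter at 134.8, all probe sets, array quality weights, limma's trend and robust options, a fit of the 2 groups alone, the actin ratio, and each array left out. Added after the data were seen were each other probe set of a casein gene, and the deposited scaling without STAT5ca_177.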

Additional observations from a re-analysis of the deposited data

Results flagged for a closer look

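Of 66 groups of signals examined with Dixon's test at the 95% level, 5 held an array that stood apart. Chance gives about 1 in 20 for independent groups, but these groups share arrays. They also include genes chosen in these data for likeness to the caseins, such as Slc28a3 and Reep6. The number flagged can therefore not be set against that rate. On STAT5ca_177 Csn3 was at 43.4, against 3741.8 to 8030.2 on the other 6 STAT5ca tumours. On the same array Elf5 was at 7.8 (others 607.2 to 4380.6), Krt8 at 25.3 (others 3836.1 to 5375.9) and Slc28a3 at 3.2 (others 366.5 to 1882.0). On STAT5Δ750_178, which had the highest signals of Csn1s1, Csn2, Csn1s2a and Csn3, Reep6 was at 378.2, against 35.2 to 76.8 on the other 5 STAT5Δ750 tumours.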

How the results depend on the processing

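Of 420 casein differences under alternatives, 402 kept their direction and their side of the threshold, 17 changed direction without being called, and 1 became called. This was Csn1s2a in STAT5ca tumours against glands with the actin ratio, at -4.69 (adjusted limma p 0.0189), a fit that cannot separate the ratio from the group. Direction changed against glands with array quality weights for Csn3 in STAT5ca tumours (0.0458) and for Csn1s1 and Csn1s2b in STAT5Δ750 tumours (0.0615 and 0.66), with the actin ratio for Csn1s2b in STAT5ca tumours (-1.52) and Csn2 and Csn3 in STAT5Δ750 tumours (-0.38 and -0.62), and with the second Csn3 probe set in STAT5Δ750 tumours (-0.16). Leaving out 1 array in turn gave -0.66 to 2.10 for Csn1s2b (below 0 without gland 1, gland 4 or STAT5ca_124) and -0.93 to 0.24 for Csn3 (above 0 without STAT5ca_177) in STAT5ca tumours. In STAT5Δ750 tumours it gave -0.19 to 0.19 for Csn1s1 (above 0 without gland 6, STAT5Δ750_160, STAT5Δ750_165 or STAT5Δ750_174), -1.53 to 1.23 for Csn1s2b (above 0 without gland 6) and -0.015 to 0.33 for Csn2 (below 0 without gland 4). The cause of these changes was not tested, and the actin ratio cannot be separated from the group in either comparison with glands. Genes called in all numbered 2154 and 1823 against glands. They became 3274 and 2879 with all probe sets tested singly, 4997 and 4861 with array weights, 772 in STAT5ca tumours with the actin ratio, and in STAT5Δ750 tumours 2826 with only the 2 groups and 2752 on the deposited scaling without STAT5ca_177. Without 1 array they were 1179 to 3039 and 835 to 2439 (1179, 1190 and 1315, and 950, 835 and 1207, without gland 1, 4 or 6), and between the tumour groups 0 to 1, the 1 without STAT5ca_169. Without STAT5ca_177 the SD of STAT5ca tumours was 1.13 for Csn1s1 and 0.52 for Csn3. Casein pairs that passed by rho numbered 7 over 13 tumours, 1 in STAT5ca and 6 in STAT5Δ750 tumours, became 1, 0 and 1 on the deposited scaling, and were 4 over the tumours without STAT5ca_177. No paired analysis was possible because the groups share no replicate numbers in the labels. Signals near 7.9, which include most of those of Csn1s2b, carry little information on change.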
